A study of Homo sapiens with 6 samples.

Results

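The genes described here are 46 signalling genes: receptor tyrosine kinases, their adaptors, the RAS and MAP kinase cascade with its negative regulators, PI3-kinase and mTOR components, and the JAK-STAT branch. They were listed by RefSeq symbol, and no peak value entered the rule. The list was nevertheless drawn up with earlier results of these data known. The genes are 46 of the 20050 coding genes in the gene table. Methylated RNA immunoprecipitation sequencing, in which RNA fragments carrying N6-methyladenosine (m6A) are pulled down with an antibody and compared with input RNA, was done in the human glioblastoma line U-251 MG. The 3 conditions were cells with a control hairpin (shNC), with a hairpin named for TRA2A, an SR-like splicing regulator, and with a hairpin named for METTL3, the enzyme that writes m6A. Each condition had 1 immunoprecipitated and 1 input library and is represented by 1 peak list, so differences below rest on single lists and were not tested.

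Receptor tyrosine kinases at the cell surface recruit adaptors such as GRB2 and the IRS proteins. These pass the signal on to RAS through the SOS exchange factors and to PI3-kinase through its regulatory subunits. RAS drives the RAF, MEK and ERK kinases, PI3-kinase drives AKT and mTOR, and GTPase-activating proteins, Sprouty and SPRED proteins act as brakes. Glioblastomas commonly carry lesions in this network. The mark m6A is placed on mRNA by a complex around METTL3, mainly at sites with a GGAC-type core, and is typically enriched around stop codons and in long internal exons.

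The lists held 9206 peaks in shNC, 2736 in shTRA2A and 5433 in shMETTL3, with 79.9%, 66.6% and 69.4% of them regular, meaning 1 block whose width is a multiple of 25 nt and at most 1000 nt. The other peaks had median widths of 2056, 2435 and 2136 nt and may cross introns. Each peak has the authors' score, whose scale is not stated. Scores are used only within a list, with a larger score taken as a stronger peak. The score medians were 12.4, 8.00 and 8.40, and the sources used here do not give read depth. Of 7 glial and glioma line markers, 4 had a control peak (NES, CD44, SOX2 and SOX9), while GFAP, VIM and S100B had none in any list. None of 9 neuronal, immune and endothelial markers had a control peak. The share over all coding genes was 19.9%, so these few markers do not identify the cells. A peak needs an expressed transcript, a mark and enough reads to be called. A missing peak therefore cannot tell lack of expression, lack of m6A and a signal too low to be called apart. The lists do not measure how far either hairpin lowered its target.

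Of the 46 signalling genes 26 had a control peak, 56.5% (exact Clopper-Pearson 95% interval 41.1 to 71.1%), against 19.9% of all coding genes. Intervals cover counting error only, and treat genes or peaks as independent. Signalling genes with a control peak had a median gene body of 126 kb and those without one 42.3 kb; over all coding genes the medians were 44.4 and 20.3 kb. The part of gene length in the higher share was not tested. Together the 26 genes carried 58 control peaks. Of the genes, 12 had a single peak, 6 had 2 and 8 had 3 or more, led by IRS1 and PIK3R1 with 6 each. The control scores of these peaks ran from 7.95 to 135 with a median of 13.6, and 32 of the 58 lay above the median of the whole control list. Of the other genes 3 had a peak only in a knockdown list, and 17 had none in any list. The 17 include the receptors AXL, PDGFRA and PDGFRB, the adaptors GRB2, SHC1 and PTPN11, and the core kinases and GTPases NRAS, HRAS, MAP2K1, MAP2K2 and MAPK3. MAP3K5, the ERK phosphatase DUSP6, the kinase AKT1, the mTOR inhibitor TSC2, JAK2 and STAT3 complete them.

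**Figure D1:**
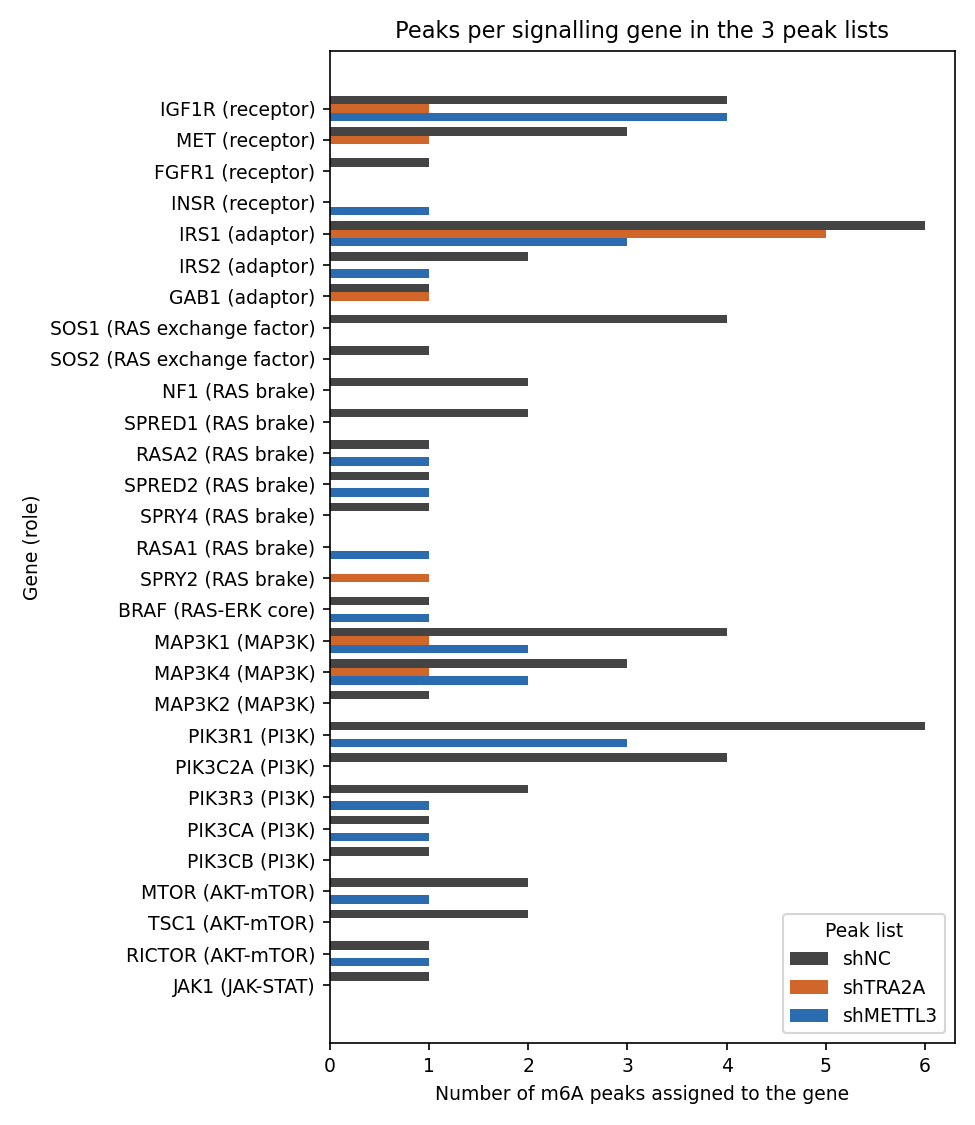
Number of peaks assigned to each of the 29 signalling genes with a peak in at least 1 list, ordered by role; bars are single peak lists without error. IRS1 and PIK3R1 lead the control list with 6 peaks each, and IRS1 has 5 of the 11 shTRA2A peaks.

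After TRA2A knockdown, 6 of these 26 genes also carried an shTRA2A peak, 23.1% (8.97 to 43.6%), beside 29.1% of all coding genes that had a control peak. The 6 genes were MET, IGF1R, GAB1, IRS1, MAP3K1 and MAP3K4. After METTL3 knockdown the count was 13 of 26, 50.0% (29.9 to 70.1%), beside 47.7% of all coding genes with a control peak. Both member shares therefore lie near the background of their comparison. Of the 26 genes, 4 (IGF1R, IRS1, MAP3K1 and MAP3K4) had a peak in both knockdown lists and 11 in neither. The matching shares over all coding genes are not given here, so these counts cannot be called high or low.

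Peak by peak, 4 of the 58 control peaks shared at least 1 base with an shTRA2A peak on the same strand, 6.90% (1.91 to 16.7%), beside 9.65% of all control peaks in coding genes. For shMETTL3 it was 13 of 58, 22.4% (12.5 to 35.3%), beside 18.0%. Both knockdowns are read against the same control list, so the counts share those peaks. The shMETTL3 list is also longer. With every list limited to its 2736 best peaks, 20 control peaks in 13 of these genes were left, of which 4 overlapped an shTRA2A peak and 4 an shMETTL3 peak. Over all coding genes at that length the shares of control peaks were 22.3% and 25.9%. By gene, the shTRA2A list then held 4 of the 13 and the shMETTL3 list 6, beside 44.1% and 49.2% of all coding genes with a control peak at that length. None of the control peaks found again was in the lowest of 3 equal bands of control rank. In these bands, shTRA2A peaks overlapped 4 of 23, 0 of 18 and 0 of 17 peaks from the best band to the lowest, and shMETTL3 peaks 7 of 23, 6 of 18 and 0 of 17. Over all control peaks in coding genes the shares in those bands were 21.1%, 5.72% and 1.88% for shTRA2A and 35.6%, 13.8% and 4.22% for shMETTL3.

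**Figure D2:**
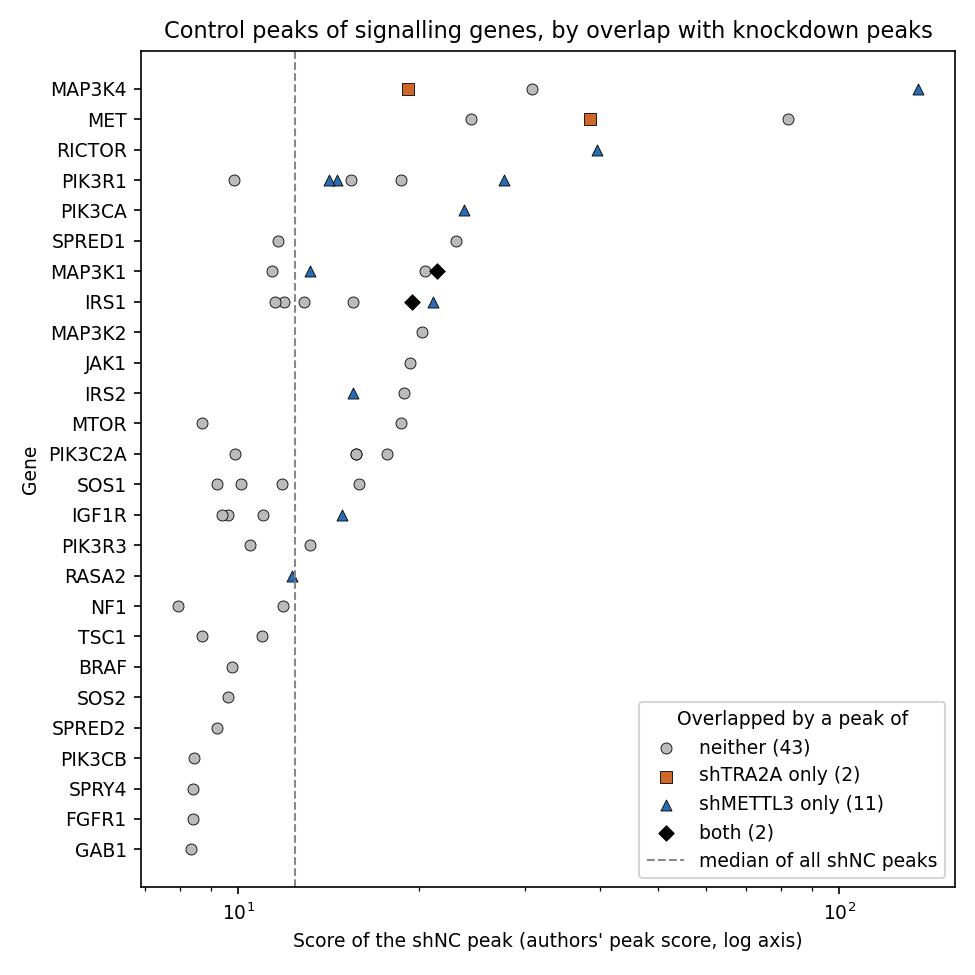
Score of each of the 58 control peaks (log axis), 1 row per gene, marked by the knockdown list that overlaps it; the dashed line is the median of all shNC peaks. Of the peaks, 43 were overlapped by neither list, 2 by shTRA2A only, 11 by shMETTL3 only and 2 by both. The MET peak with a score of 82.2 is among the 43. The matching shares over all coding genes are not given here.

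Among 7 receptors, 3 had control peaks, beside 56.5% of the 46 signalling genes and 19.9% of all coding genes. MET and IGF1R carried 7 of the 8 receptor peaks. MET, the hepatocyte growth factor receptor (chr7:116672196-116798377 on GRCh38), had 3 control peaks. The strongest, at chr7:116797704-116798253, was 550 nt wide with a score of 82.2, rank 84 of the control list, and its midpoint lay 399 nt from the gene end. The other pair lay about 27 kb into the gene body, at 116699264-116699413 (score 24.4) and 116699689-116699963 (score 38.5). The single shTRA2A peak, at 116699714-116699813 with a score of 7.88, fell inside the latter, and no shMETTL3 peak was assigned to MET. The strongest MET peak was thus overlapped in neither knockdown list, while a weaker one was in shTRA2A.

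IGF1R, the receptor for insulin-like growth factors (chr15:98648539-98964530), had 4 control, 1 shTRA2A and 4 shMETTL3 peaks. Its best control peak, at 98962390-98962589 (score 14.9), contained the best shMETTL3 peak, at 98962440-98962489 (score 11.5). The other 3 shMETTL3 peaks lay 50 to 450 nt from the nearest control peak without touching it. The shTRA2A peak, at 98900669-98900718 (score 7.62), was 10711 nt from any control peak. FGFR1, a fibroblast growth factor receptor, had 1 control peak of 50 nt with a score of 8.41 and none in the knockdown lists. INSR, the insulin receptor, had no control peak and 1 shMETTL3 peak, a wide span of 6734 nt with a score of 7.97.

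IRS1, the main docking protein of insulin and IGF receptors (chr2:226731312-226799820, minus strand), had 6 control, 5 shTRA2A and 3 shMETTL3 peaks. Only PIK3R1 had as many in the control among these genes, and none had as many in shTRA2A. One site was shared by all lists: the control peak at 226735967-226736166 (score 19.5) had identical edges in shMETTL3 (score 9.93) and held the shTRA2A peak at 226736117-226736166 (score 8.07). The other 5 control peaks had midpoints 1713 to 4588 nt from the gene start, with scores of 11.5 to 21.0. The best of them, at 226795432-226795681, was overlapped by an shMETTL3 peak at 226795407-226795456 (score 8.12). In shTRA2A 4 peaks also lay in this first stretch, yet none touched a control peak. Those at 226797457-226797706 (score 9.04) and 226795857-226795956 (score 7.99) were 125 and 175 nt away from the nearest one. The remaining shTRA2A pair had midpoints 376 and 501 nt from the gene start (scores 7.57 and 7.37). An shMETTL3 peak at 226799232-226799281 (score 10.1) directly abutted the latter without sharing a base, and the nearest control peak was 1075 nt away from it.

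IRS2, the second insulin receptor substrate, had a control peak at chr13:109755545-109755719 (score 15.5) that held its 1 shMETTL3 peak (109755620-109755719, score 17.0, rank 452 of that list), and no shTRA2A peak. Its other control peak, of 75 nt with a score of 18.9, was on the strand opposite to the gene. GAB1, a docking protein downstream of MET, had a 50 nt control peak with a score of 8.33. The only knockdown peak of GAB1 was an shTRA2A span of 4376 nt (score 7.40) that ended 150 nt short of it.

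**Figure D3:**
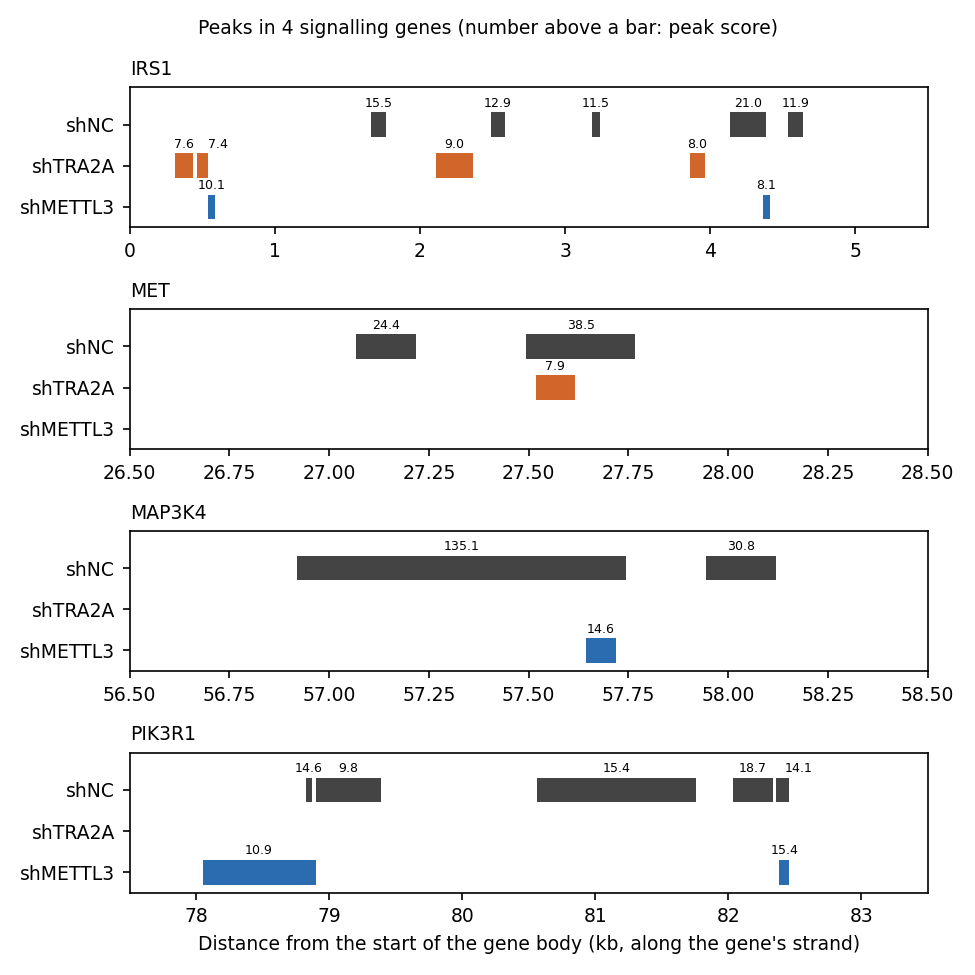
Peaks in stretches of IRS1, MET, MAP3K4 and PIK3R1, drawn to scale in kb from the start of the gene body, 1 row per peak list, with each peak's score above its bar. In the IRS1 stretch no shTRA2A bar lies under a control bar, while the MET shTRA2A bar (score 7.88) and the MAP3K4 shMETTL3 bar (score 14.6) lie inside control bars.

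Of the 2 exchange factors that load RAS with GTP, SOS1 had 4 control peaks, a pair near the gene end (scores 10.1 and 11.8) and a pair around chr2:39022786-39023160 (scores 9.23 and 15.9), and SOS2 had 1 (score 9.60). Neither SOS gene appeared in a knockdown list. Of 8 brakes, 5 had control peaks, 7 in all, beside 56.5% of the 46 signalling genes and 19.9% of all coding genes. No shTRA2A peak was assigned to those 5, beside 29.1% of all coding genes with a control peak that had one. An shMETTL3 peak was assigned to 2 of the 5, beside 47.7%. With 5 genes these counts are too small to set apart from those shares. The control peaks of SPRED1, a RAF inhibitor that works with NF1, lay at chr15:38351100-38351299 (score 23.0) and 38351325-38351374 (score 11.6), and no knockdown peak was assigned to it. NF1, the neurofibromin GTPase-activating protein, had 2 control peaks (scores 7.95 and 11.9) and none in the knockdowns. Another 3 control peaks inside the NF1 body were on the opposite strand and within EVI2A or EVI2B, genes nested in NF1, and were assigned to those. An shMETTL3 peak at chr17:31318494-31318543 (score 7.40), on the strand of NF1, also lies within EVI2A and went to it by the same rule. RASA2, a RAS GTPase-activating protein, had a control peak of 1006 nt (score 12.3) overlapped by an shMETTL3 span of 4054 nt (score 8.22) with the same right edge. SPRED2 had a control peak (score 9.22) and an shMETTL3 peak (score 5.86) 975 nt apart. SPRY4, a Sprouty inhibitor, had 1 control peak (score 8.41) alone.

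Peaks in genes without an assigned control peak were few. SPRY2, the best known Sprouty, was the only gene of the 20 with an shTRA2A peak, 5.00% (0.127 to 24.9%), beside 3.81% of all coding genes without a control peak. For shMETTL3 they were INSR and RASA1, 10.0% (1.23 to 31.7%), beside 7.64%. The case of RASA1, a RAS GTPase-activating protein, depends on assignment. A 50 nt control peak with a score of 9.12 lies 772 nt from its gene end at chr5:87391120-87391169, but the body of CCNH also covers it and neither gene lies inside the other, so it was given to neither. It is on the strand of RASA1.

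The peaks of MTOR, RASA1 and SPRY2 reached RefSeq promoter windows, which run from 250 bases before to 50 after a start site. These sequences are shown because the sources used here hold peak sequence only for such windows. The stretches were placed to take in a GGAC, so its presence in them is not a result. The RASA1 and SPRY2 stretches lie before the start site of their window (chr5:87268937 and chr13:80340108), though inside the gene body. RNA begun at that site would not hold them. The MTOR stretch lies after its start site. Each is 30 bases from RefSeq (GRCh38.p14), 5′ to 3′ on the gene's strand, with each GGAC in capitals:
MTOR, shNC peak, chr1:11262509-11262538, minus strand: aGGACagcggggaaggcgggcggtggggca
RASA1, shMETTL3 peak, chr5:87268691-87268720, plus strand: actggggggagctGGACtgacagggggagg
SPRY2, shTRA2A peak, chr13:80340329-80340358, minus strand: gggggttgGGACggaGGACagctagcctga
In MTOR the 75 nt peak (score 8.71) shared 37 bases with the window and in RASA1 the 100 nt peak (score 11.5) shared 46. Each of these held 1 GGAC on the gene's strand, and 14.7% and 15.4% of all 35116 windows hold one in the same slice, or 26.1% and 28.8% on either strand. The SPRY2 peak of 1037 nt (score 7.38) covered the whole of that window, with 3 GGAC. It also covered 283 bases of another SPRY2 window, not shown above, with 1 GGAC. Of all windows, 63.9% hold at least 1 in that slice on the gene's strand and 85.6% on either. Over whole windows, 66.3% of all hold at least 1 on the gene's strand and 87.4% on either. A match is a string of letters and not a mapped m6A site.

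In the RAS-ERK core, BRAF alone of NRAS, HRAS, BRAF, MAP2K1, MAP2K2 and MAPK3 had peaks. This is 1 of 6 genes with a control peak, beside 19.9% of all coding genes and 56.5% of the 46 signalling genes. With 6 genes the group is too small to set apart from either share. BRAF, the RAF kinase most often mutated in cancer, had 1 control peak at chr7:140726252-140726376 (score 9.78) and 1 shMETTL3 peak at 140724127-140724176 (score 6.94), 2075 nt apart. The MAP3K kinases, which feed the JNK and p38 branches as well as ERK, had 8 control peaks in 3 of 4 genes. The same shares, 19.9% of all coding genes and 56.5% of the 46 signalling genes, stand beside these 3 of 4. Again 4 genes are too few to set the group apart.

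MAP3K4 (chr6:160991769-161117380) held the strongest control peak of all these genes. It lay at 161048688-161049512, 825 nt wide, with a score of 135, rank 21 of 9206. An shMETTL3 peak of 75 nt at 161049413-161049487 (score 14.6) lay inside it, and no shTRA2A peak touched it. The neighbouring control peak at 161049713-161049887 (score 30.8) was overlapped in neither list. The shTRA2A peak of MAP3K4 (score 9.88, rank 395) was a span of 2473 nt near the gene end with exactly the edges of a control peak (score 19.2). The second shMETTL3 peak assigned to MAP3K4 was on the opposite strand, within the body of the antisense RNA gene MAP3K4-AS1.

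MAP3K1, with 4 control peaks, had a run of 3 of them at chr5:56881851-56882400 separated by gaps of 25 nt, with scores of 21.4, 13.1 and 11.4. All knockdown peaks of the gene lay in this run. The shTRA2A peak at 56881976-56882050 (score 8.28) and the shMETTL3 peak at 56881976-56882175 (score 6.69) started at the same base, and another shMETTL3 peak lay at 56882201-56882300 (score 9.24). The other control peak of MAP3K1, a span of 7694 nt on the opposite strand (score 20.4), was overlapped in neither. MAP3K2 had 1 control peak of 75 nt (score 20.2) alone. IRS1 and MAP3K1 were the genes in which 1 control peak was overlapped in both knockdown lists.

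All 5 PI3-kinase genes had control peaks, 14 in all, beside 56.5% of the 46 signalling genes and 19.9% of all coding genes. The shTRA2A list held none of the 5, beside 29.1% of all coding genes with a control peak. The shMETTL3 list held 3 of the 5, beside 47.7%. With 5 genes the knockdown counts are too small to set apart from 29.1% and 47.7%. The contrast between the knockdown lists was not tested, and the shMETTL3 list is the longer of them. PIK3R1, the p85-alpha regulatory subunit (chr5:68215756-68301821), had 6 control and 3 shMETTL3 peaks. The best control peak, at 68226509-68226858 (score 27.6), and the shMETTL3 peak at 68226559-68226858 (score 9.08) shared their right edge. The other 5 control peaks lay between 68294580 and 68298215 (scores 9.84 to 18.7), and 2 of them were overlapped by shMETTL3 peaks with scores of 10.9 and 15.4. Each shMETTL3 peak of PIK3R1 thus touched a control peak. PIK3CA, the p110-alpha catalytic subunit, had 1 control peak at chr3:179234205-179234454 (score 23.7) and 1 shMETTL3 peak at 179234255-179234479 (score 12.0) over most of it. PIK3R3, the p55-gamma subunit, had 2 control peaks (scores 13.1 and 10.5) and an shMETTL3 peak (score 7.36) 12127 nt from them. PIK3C2A, a class II enzyme, had 4 control peaks with scores of 9.88 to 17.7, 3 of them within chr11:17168834-17169708. PIK3CB, the p110-beta subunit, had 1 span of 1108 nt (score 8.45). No knockdown peak was assigned to PIK3C2A or PIK3CB.

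RICTOR, the defining subunit of mTOR complex 2, had 1 control peak at chr5:38950239-38950588 (score 39.5, rank 504) with an shMETTL3 peak inside it at 38950264-38950438 (score 7.56, rank 3784 of 5433) and no shTRA2A peak. MTOR itself had a control peak 700 nt from the gene end, at chr1:11107110-11107359 (score 18.7), besides the one at its start. The shMETTL3 peak assigned to MTOR was a span of 4115 nt on the opposite strand (score 7.60), within the antisense RNA gene MTOR-AS1, so no shMETTL3 peak lay on the strand of MTOR. TSC1, which restrains mTOR complex 1, had 2 control peaks (scores 11.0 and 8.69) and none in the knockdowns. JAK1, a cytokine receptor kinase, had 1 control span of 2143 nt (score 19.3) alone.

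Along the gene body, introns included and oriented by the gene's strand, control peaks of these genes lay towards the end. The median midpoint was at 90.3% of the body over 56 peaks on the gene's strand, with 28 of them, 50.0%, in the last 10% and 6, 10.7%, in the first 10%. Among those 6, only the MTOR peak lay outside IRS1. For all coding genes with a known strand the median was 78.7%, with 33.9% in the last 10% and 5.66% in the first. The 22 shMETTL3 peaks on the gene's strand had a median of 90.9% and 12 lay in the last 10%. Of the 11 shTRA2A peaks 2 did so and 4 lay in the first 10%, all of these in IRS1, with a median of 21.8%. Over all coding genes the medians were 71.0% for shTRA2A and 72.7% for shMETTL3. The last 10% held 24.2% and 27.0% of those peaks, and the first 10% held 8.04% and 7.64%. IRS1 supplies 5 of the 11 shTRA2A peaks, and without it the median of the other 6 was 75.9%.

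**Figure D4:**
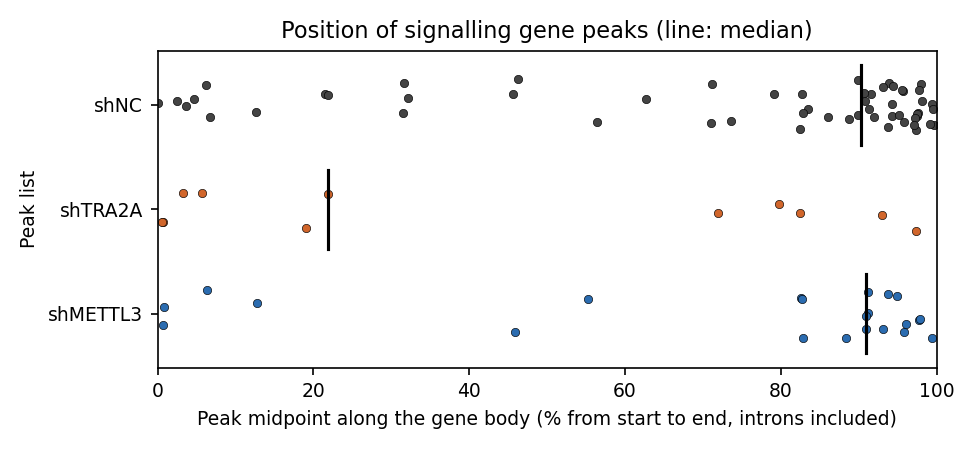
Midpoint of each peak on the gene's strand as a percentage of the gene body from start to end, for 56 shNC, 11 shTRA2A and 22 shMETTL3 peaks; vertical lines are medians and vertical scatter has no meaning. The medians are 90.3%, 21.8% and 90.9%, and the 4 shTRA2A points in the first 10% are all from IRS1.

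A wider list held 74 further genes of the network, and 30 of them had a control peak, 40.5%, beside 19.9% of all coding genes. Of these 30, the shTRA2A list held 8, 26.7%, the shMETTL3 list 14, 46.7%, and 14 were in neither. No share over all coding genes is given for the last count. Both knockdown shares lie near the 29.1% and 47.7% of all coding genes with a control peak. By control score the first was FRS2, an FGF receptor adaptor, with 2 control peaks (best score 73.6), no shTRA2A and 1 shMETTL3 peak (score 29.9). ROS1, an orphan receptor kinase, had 2 control peaks (best score 57.0), and FOXO1, a transcription factor restrained by AKT, had 4 (best score 42.9), with none in the knockdowns. SOCS2, a cytokine signalling inhibitor, had 1 peak in each list, with scores of 52.6, 9.46 and 17.2, and its control peak was overlapped in both. RASAL2, a RAS GTPase-activating protein, had 3, 1 and 2 peaks, and 1 of its control peaks was overlapped in each knockdown. IL6ST, the gp130 co-receptor upstream of JAK1, had 5, 4 and 4, and 3 and 4 of its 5 control peaks were overlapped in shTRA2A and shMETTL3.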

How the data were processed

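Per the labels' protocols, total RNA of U-251 MG cells was fragmented, and 6 stranded paired-end libraries were made. Alignment and counting tools, per the submitters' processing notes, were featureCounts 2.0.1, HISAT2 2.2.1 and SAMtools, on GRCh38. The sources used here do not give the peak caller or its thresholds. The authors deposited 12-column peak lists whose column 5 is a score. Of 4 lists, 1 has a name matching no label, equals the shTRA2A list byte for byte, and was not used (1 value column).

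Coordinates were turned to count from 1. A peak went to the coding gene (RefSeq table, GRCh38.p14) whose body it touches; of several, to the one that holds it and lies inside the others. Gene strand came from the RefSeq promoter table for 41 of 46 genes. For FGFR1, GAB1, RASA2 and MAP3K1 it was the strand of most of the gene's peaks, and PTPN11, without peaks, was given none. Overlap needs 1 shared base on the same strand. Tables were made with pandas 2.3.3 and numpy 2.4.6 under Python 3.11.15, intervals with scipy 1.17.1 and figures with matplotlib 3.10.9. Overlaps were checked against bedtools 2.31.1 and on simulated peaks. All 46 members are accounted for; those with 3 or more control peaks, a knockdown peak or a top-tenth control score get positions or scores in each list. Other network genes named are the 6 with the best control scores. Members, lists and comparisons were chosen with earlier results of these data known. Promoter sequences were looked up after peak positions were seen.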

Additional observations from a re-analysis of the deposited data

How the results depend on the processing

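Of 58 recomputed values, 46 stayed within 1.5 times the reported count, or for the median position within the spread, and 12 did not. No list has replicates to leave out. This tally compares counts and not shares, although the totals also change. At equal list length, control peaks overlapping shTRA2A went from 4 of 58 to 4 of 20 and were tallied as staying. Genes with an shMETTL3 peak went from 13 of 26 to 6 of 13 and were tallied as not staying. In the better-scoring 50% of each list, 16 of the 46 genes had a control peak, 3 and 7 of these 16 had an shTRA2A and an shMETTL3 peak, and 0 and 1 genes without a control peak had one. With regular peaks only, the last counts were also 0 and 1. With lists of equal length, 13 genes had a control peak, 6 of these an shMETTL3 peak, 4 control peaks overlapped one, and 3 genes had an shTRA2A peak without a control peak. When a peak counted for every gene touched, 1 gene (INSR) had an shMETTL3 peak without a control peak, because RASA1 then keeps its control peak. Counting a gene as found only where a control peak was overlapped gave 4 and 9 of 26 genes. Restriction to the gene strand as set above, an alternative chosen after the data were seen, removed the shMETTL3 peak of MTOR and left 12 of 26. No paired analysis was possible because each condition has 1 library of each kind. Fewer peaks enter under the score, shape and length limits; depth limits could not be assessed without read counts.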

Other observations

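Some neighbouring control peaks of these genes were separated by a gap of 25 nt, the step of the peak widths. Of 30 pairs of adjacent control peaks on the same strand of a gene, 6 had a gap of exactly 25 nt and 14 a gap of at most 500 nt, beside 16.2% and 54.8% of 4306 such pairs over all coding genes. Peak numbers per gene therefore count some neighbouring stretches separately, as in MAP3K1 and PIK3R1, and with peaks within 100 nt merged the 58 control peaks became 51.

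Some knockdown peaks lay near control peaks that they did not overlap. In shMETTL3, 4 of 24 peaks were within 1000 nt of a control peak of the same gene and strand without touching it, 3 of them in IGF1R and 1 in SPRED2. In shTRA2A, 3 of 11 were, of which 2 lay in IRS1 and 1 in GAB1. Over all coding genes the shares were 15.4% for shMETTL3 and 14.7% for shTRA2A. Control peaks were touched by 4 of the 11 shTRA2A peaks of these genes, 36.4% (10.9 to 69.2%), and by 13 of the 24 shMETTL3 peaks, 54.2% (32.8 to 74.4%); over all peaks in coding genes these shares were 34.6% and 33.1%.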
